A study of Homo sapiens with 2 samples.

Results

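The S100 proteins and the annexins are a pair of calcium-binding protein families, and their genes were taken here by symbol as every protein-coding gene named S100 or ANXA with a number. Of the 57736 Ensembl identifiers in the count table, 34 were members, 21 with an S100 symbol and 13 annexins. One of the former, S100PBP, encodes a protein that binds S100P and is not itself an S100 protein. ANXA2R was left out by the rule, and ANXA8 has no row under its current identifier and was not analysed here. The counts came from A1847 cells, a human ovarian cancer line. One library was made from parental cells, which carry wild-type CARM1, and 1 from cells in which the arginine methyltransferase CARM1 was knocked out by lentiviral CRISPR (CARM1 KO). The knockout cells are 1 clone, set against the parental line from which it was made, and both were grown in the same serum-containing medium. Neither library is labelled with a drug treatment. The paper's methods, however, put cells infected with viruses that carry puromycin resistance through puromycin selection, and no vector-control library was made.

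S100 proteins are small EF-hand proteins that mostly work as dimers. On binding calcium they expose a surface that grips target proteins, among them annexins, and some are also released to act on cell-surface receptors. Annexins dock through calcium onto membranes rich in acidic phospholipids, where they serve in endocytosis, exocytosis, membrane repair and the organisation of cortical actin. The families meet in defined complexes, of which the best known joins S100A10 to annexin A2. Many of these genes are used as markers of epithelial differentiation, invasion or inflammation in carcinomas.

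The parental library held 30741953 reads and the CARM1 KO library 32300391. The targeted gene, CARM1, had 975 parental reads and 380 after knockout, a level 2.63-fold lower (95% interval 2.33 to 2.97). Folds are ratios of reads after TMM scaling, which corrects for library size and composition, each with an exact 95% binomial interval for the error of counting alone. A gene was called higher or lower in CARM1 KO cells when its fold was above 3 and the interval left out 1. The fold threshold is that of the study, which also required a false discovery rate (FDR) under 0.05 from edgeR. That rate was not part of these calls. With 1 library per group no difference has a replicate check, so each call describes these libraries and not the conditions. A clone that differs from its parental population, an effect of viral transduction or selection, and a consequence of CARM1 loss cannot be told apart. Nor can fewer cells with a transcript and less of it per cell.

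Of the 21 S100 genes, 10 had at least 10 reads in both libraries together. S100A6 and S100A10 were called higher in CARM1 KO cells, S100A4 and S100A1 were called lower, and 6 lay within 3-fold. Over all 18563 genes with that many reads, 12.4% were called higher and 11.2% lower. Among the 13 annexins, 11 had at least 10 reads, and of these 6 were called higher, 0 were called lower and 5 were not called. The higher ones were ANXA1, ANXA2, ANXA3, ANXA8L1, ANXA8L2 and ANXA9. ANXA9 reached 10 reads only through CARM1 KO cells, where it was higher, and without it 5 of 10 annexins were called higher. ANXA8L1 and ANXA8L2 are near-identical copies between which reads are divided, so their calls are not independent. The median log2 fold was 0.37 for the 10 S100 genes and -0.03 for all genes with at least 10 reads. For the 11 annexins it was 1.80, which is the value of ANXA9 itself, and for the 10 without ANXA9 it was 1.31. Both annexin medians count ANXA8L1 and ANXA8L2 as separate genes.

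**Figure D1:**
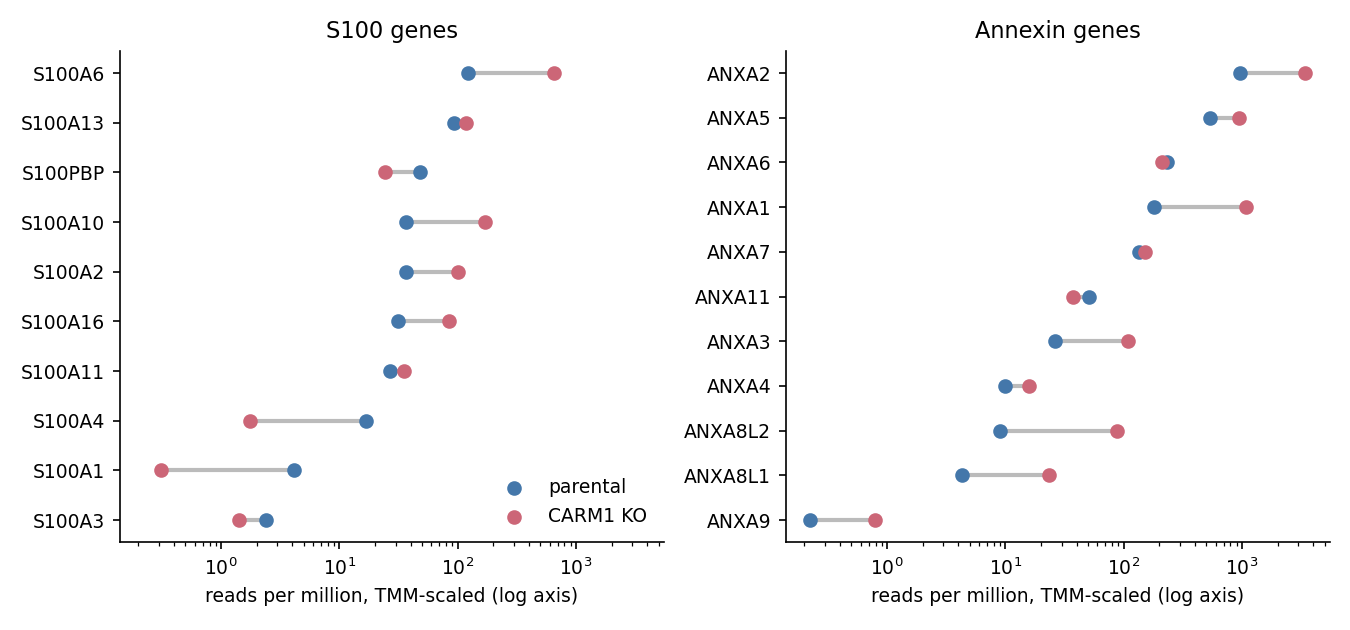
Level of each member with at least 10 reads in parental (blue) and CARM1 KO (red) cells, as CPM (TMM-scaled reads per 1000000 on a log axis), for S100 genes on the left and annexins on the right. S100A6 goes from 122 to 649 and ANXA2 from 969 to 3415, while S100A4 and S100A1 go the other way.

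S100A6 (calcyclin), a dimer linked to proliferation and the ubiquitin pathway, was the most abundant S100 transcript in both libraries. Parental cells had 3807 reads and CARM1 KO cells 20704, or 122 and 649 CPM, the level was 5.31-fold higher (95% interval 5.13 to 5.50). S100A10 (p11), the annexin A2 partner that has lost calcium binding and stays in its active shape, had 1150 and 5399 reads, a 4.59-fold higher level (95% interval 4.30 to 4.89). These were the S100 genes with the largest gains.

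S100A4, known as metastasin and as a marker of fibroblasts and of cells that lose epithelial features, had 526 reads in the parental library against 56 in the knockout. This was 9.62-fold lower (95% interval 7.29 to 12.9). S100A1, a regulator of calcium handling in heart and skeletal muscle, was near the edge of detection after knockout, with 129 parental reads against 10, 13.2-fold lower (95% interval 6.95 to 28.2). The called S100 genes therefore lay in both directions, unlike the called annexins, although the uncalled ANXA6 and ANXA11 were lower.

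S100A2 and S100A16 lay just under the threshold. S100A2, an epithelial S100 regulated by p53 family proteins, had 1149 and 3204 reads, 2.72-fold higher (95% interval 2.55 to 2.92). S100A16 had 967 and 2715 reads, 2.74-fold higher (95% interval 2.55 to 2.95). On the log2 scale S100A2 (1.45) and S100A16 (1.46) were nearer to S100A10 (2.20) than to S100A11 (0.40), the next S100 gene below them.

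S100A11, which pairs with annexin A1, had 835 and 1126 reads and was 1.32-fold higher (95% interval 1.20 to 1.44). S100A13, which takes part in the release of FGF1, had 2890 and 3736 reads and was 1.26-fold higher (95% interval 1.20 to 1.33). These were the smallest differences among the S100 genes with at least 10 reads. S100A3, a cysteine-rich S100 of the hair cuticle, had 75 and 45 reads, 1.71-fold lower (95% interval 1.16 to 2.53). S100PBP had 1485 and 783 reads, 1.94-fold lower (95% interval 1.78 to 2.12).

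The other 11 S100 genes had fewer than 10 reads in both libraries together. S100A8, S100A9 and S100A12, the calgranulins of neutrophils and monocytes, had 0 reads in each library, as had S100A7 and S100A7A, the psoriasins of skin, and S100Z. A count of 0 allows up to 3 reads at this depth, so presence below that limit was not detectable. S100A5 had 5 parental and 4 knockout reads, S100A14, an epithelial S100, 0 and 4, and S100P, which is found in many carcinomas, 1 and 2. S100B, of glia and melanocytes, and S100G, the intestinal calbindin, each had 1 read, in the CARM1 KO library.

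**Figure D2:**
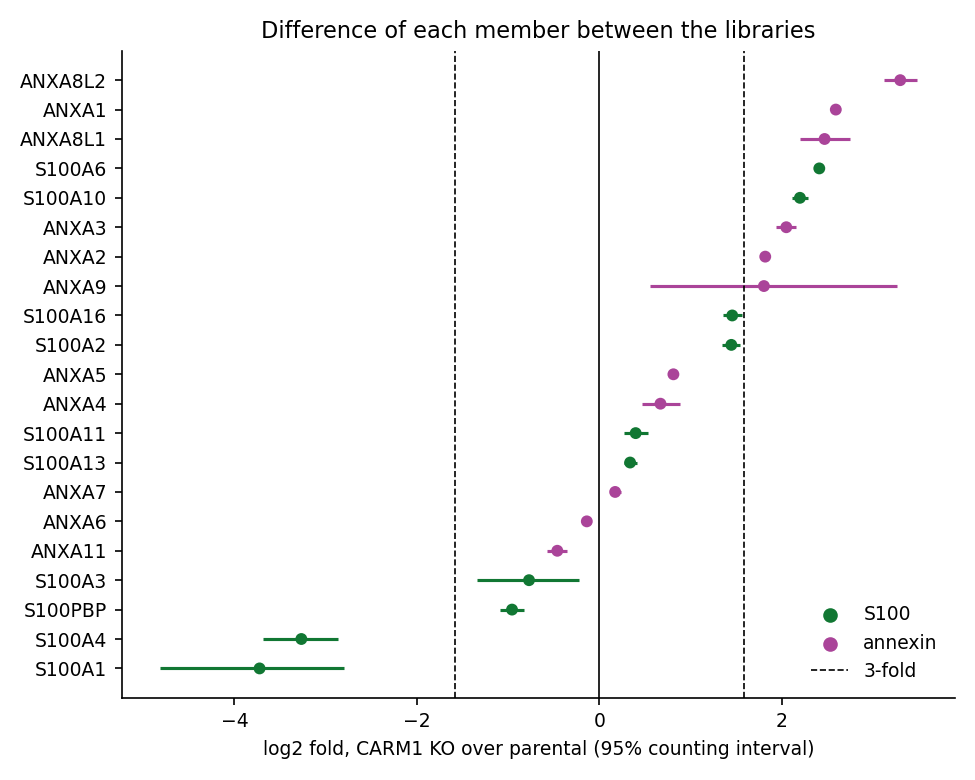
Log2 fold of CARM1 KO over parental for the 21 members with at least 10 reads, with 95% counting intervals as horizontal lines, S100 genes in green, annexins in purple and dashed lines at 3-fold. Values run from -3.72 for S100A1 to 3.30 for ANXA8L2, and the interval of ANXA9 crosses the 3-fold line.

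Of the 21 S100 genes, 16 lie on the long arm of chromosome 1, from S100A10 (GRCh37 151955391 to 151966335, minus strand) to S100A1 (153600402 to 153604515, plus strand). Reads of this cluster came from its ends. S100A10 and S100A11 stand at one end, followed after a gap of 1309950 bases by S100A9, S100A12, S100A8, S100A7A and S100A7, all with 0 reads. The genes from S100A6 to S100A1 form the other end.

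In the second group, genes called in opposite directions lay close together, with the uncalled S100A5 between them. S100A6 (153507075 to 153508720) is separated from S100A5 by 902 bases, and S100A5 from S100A4 (153516089 to 153522612) by 1847 bases, all on the minus strand. S100A6 was higher and S100A4 lower, so that the ratio of S100A6 to S100A4 reads went from 7.24 in parental cells (95% interval 6.61 to 7.94) to 370 in CARM1 KO cells (95% interval 285 to 490). S100A4 overlaps S100A3 over 1930 bases on the same strand. S100A1 overlaps S100A13 over 3435 bases on the opposite strand, and reads of such pairs are uncertain because the sources do not state whether strand was used in counting. The ratio of S100A13 to S100A1 reads went from 22.4 (95% interval 18.8 to 26.9) to 374 (95% interval 203 to 780).

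**Figure D3:**
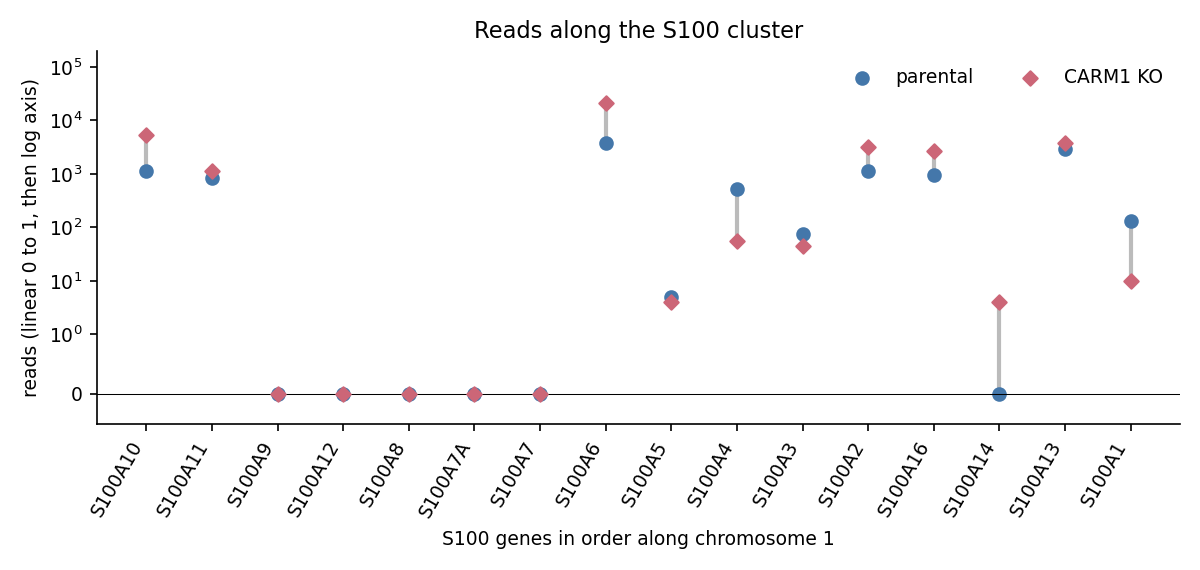
Reads of the 16 clustered S100 genes in their order along chromosome 1 (not to distance), parental as blue circles and CARM1 KO as red diamonds, on an axis that is linear from 0 to 1 and logarithmic above. S100A6 is higher and S100A4, 2 genes further on, is lower in CARM1 KO cells, and the 5 genes from S100A9 to S100A7 are at 0.

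Between the starts of S100A10 and S100A1, 45 other protein-coding genes belong mostly to the epidermal differentiation complex, which supplies proteins of the skin barrier. Only TCHH and FLG among them had at least 10 reads, and both were called higher, against 12.4% of all genes. TCHH (trichohyalin), which like FLG is a fused-type protein with an S100 domain at its start, had 34 and 179 reads, 5.14-fold higher (95% interval 3.55 to 7.66). FLG (filaggrin) had 1 parental read and 35 after knockout, and entered only through the latter. Of the 7 fused-type S100 proteins listed, these were also the ones with at least 10 reads.

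Genes around the cluster had a median below equality. Within 2 Mb on either side, a window chosen after the values were seen, 98 protein-coding genes had at least 10 reads, with a median log2 fold of -0.67, and 19 of the 98 had a fold above 1. Of these genes 3 were called higher (3.06%, against 12.4% of all genes) and 11 lower (11.2%, the same as over all genes). The 9 S100 genes of the cluster with at least 10 reads had a median of 0.40, from -3.72 to 2.41, and 6 of the 9 had a fold above 1. DNA copy number was not measured, and its part in these values cannot be told apart from transcription.

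Annexin A2 was the most abundant annexin by reads. ANXA2, which with S100A10 forms a tetramer at the plasma membrane that binds plasminogen and its activator, had 30180 parental reads and 108877 after knockout. The difference was 3.52-fold (95% interval 3.48 to 3.57). ANXA1 (lipocortin), a glucocorticoid-induced protein that restrains inflammation, had 5589 and 34457 reads, 6.02-fold higher (95% interval 5.85 to 6.20). ANXA3, an annexin associated with neutrophil granules and platinum resistance in ovarian cancer, had 825 and 3492 reads, 4.13-fold higher (95% interval 3.83 to 4.47). These 3 genes lie on chromosomes 15 (60639333 to 60695082), 9 (75766781 to 75785309) and 4 (79472901 to 79531605).

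ANXA8L1 and ANXA8L2 are near-identical copies of ANXA8, an annexin of late endosomes and stratified epithelium, on chromosome 10. ANXA8L1 had 133 and 753 reads, 5.53-fold higher (95% interval 4.59 to 6.70), and ANXA8L2 had 280 and 2816 reads, 9.82-fold higher (95% interval 8.68 to 11.1). RSEM divides reads between such copies, and another row, AL603965.1, which overlaps ANXA8L2 over 16080 bases on the same strand, had 172 and 1590 reads. Summed, the 3 rows had 585 parental and 5159 knockout reads, 8.61-fold higher (95% interval 7.91 to 9.40), a sum that does not depend on the division among them. It leaves out LINC00842, which overlaps ANXA8L1 over 16036 bases on the same strand and had 24 and 157 reads. Any division of reads with that gene is not covered. ANXA9, which has lost calcium binding in its core, had 7 and 25 reads, 3.49-fold higher with a wide interval (1.47 to 9.55), and passed the minimum of reads only through CARM1 KO cells.

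The remaining annexins with at least 10 reads lay closer to equality. ANXA5, whose binding to phosphatidylserine is used to stain apoptotic cells, had 16626 and 29860 reads, 1.75-fold higher (95% interval 1.72 to 1.79). ANXA4, an epithelial annexin, had 309 and 503 reads, 1.59-fold higher (95% interval 1.38 to 1.84). The threshold of 3-fold thus fell in a gap between ANXA5 and ANXA9.

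ANXA7 (synexin), named for its fusion of secretory granules, had 4191 and 4836 reads, 1.13-fold higher (95% interval 1.08 to 1.17). ANXA6, which carries more annexin repeats than any other member and works in endosomal cholesterol transport, had 7207 and 6706 reads, 1.10-fold lower (95% interval 1.06 to 1.14). ANXA11, which tethers RNA granules to lysosomes, had 1592 and 1184 reads, 1.38-fold lower (95% interval 1.28 to 1.49). ANXA10 had 1 and 2 reads and ANXA13, an intestinal annexin, had 1 and 0.

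The assumed spread between cultures decided some of these calls. In edgeR's exact test, adjusted by Benjamini-Hochberg over all genes with at least 10 reads and given an assumed biological coefficient of variation of 0.4, S100A4, S100A1, ANXA1 and ANXA8L2 stayed past both the FDR of 0.05 and the 3-fold limit, whereas S100A6, S100A10, ANXA2, ANXA3, ANXA8L1 and ANXA9 did not. With 0.12 all 10 passed.

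**Figure D4:**
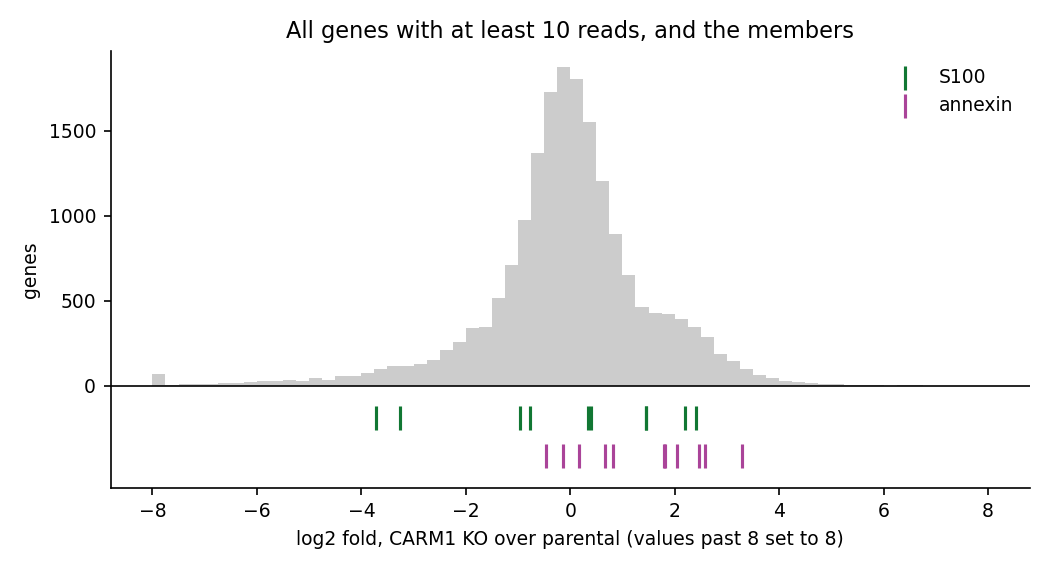
Histogram of the log2 fold of CARM1 KO over parental for the 18563 genes with at least 10 reads (grey), with the 10 S100 genes (green) and 11 annexins (purple) as ticks beneath. The annexin median is 1.80, or 1.31 without ANXA9, against -0.03 for all genes, and S100 ticks lie on both sides.

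Sums over each family were led by a few genes. The 20 S100 genes other than S100PBP made up 0.0375% of all reads in parental cells (95% interval 0.0368 to 0.0382) and 0.115% in CARM1 KO cells (95% interval 0.113 to 0.116), a 3.13-fold higher sum. Without S100A6 the sum was 2.06-fold higher (95% interval 2.01 to 2.12). S100A6 went from 33.0% of S100 reads to 55.9%, while S100A13 went from 25.1% to 10.1% and S100A4 from 4.56% to under 1 in 100.

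Annexins made up 0.218% of all reads in parental cells (95% interval 0.216 to 0.219) and 0.599% in CARM1 KO cells (95% interval 0.596 to 0.602), a 2.82-fold higher sum. Without ANXA1 and ANXA2 it was 1.57-fold higher (95% interval 1.55 to 1.59). ANXA2 went from 45.1% to 56.3% of annexin reads and ANXA1 from 8.35% to 17.8%. ANXA5 went from 24.8% to 15.4% and ANXA6 from 10.8% to 3.47%, although the scaled level of ANXA5 was higher.

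**Figure D5:**
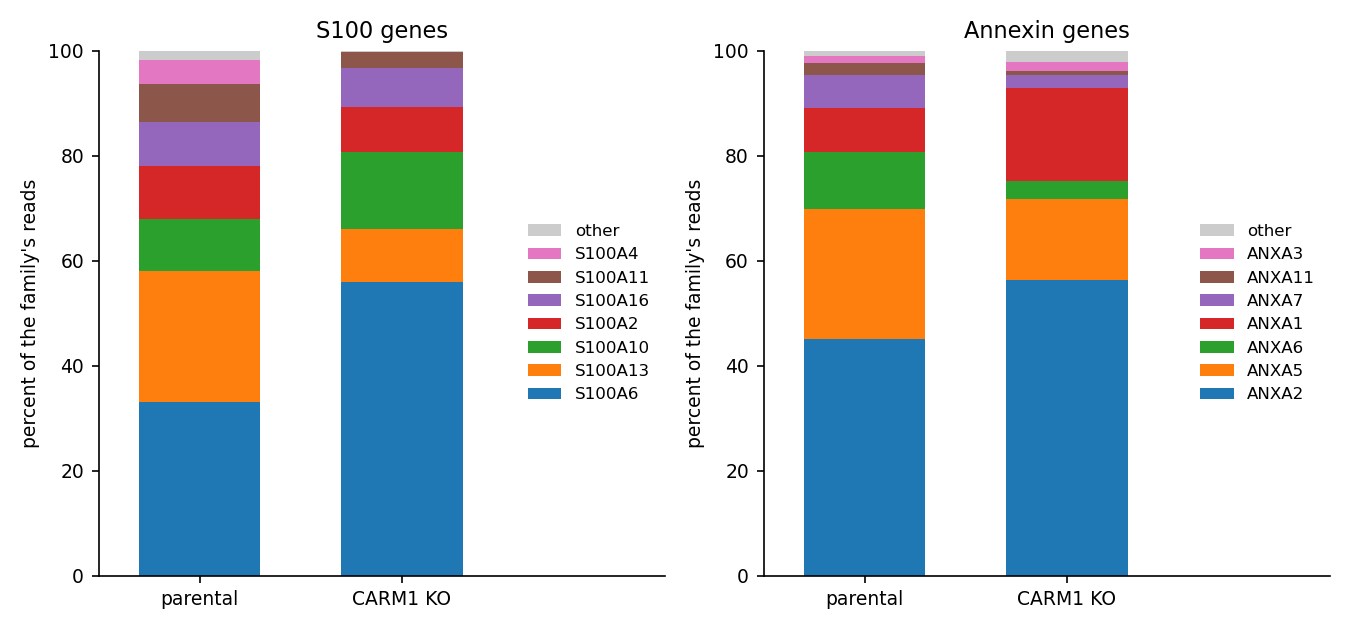
Share of each gene in the reads of its family, in percent, for the 20 S100 genes without S100PBP (left) and the 13 annexins (right), with parental and CARM1 KO cells as stacked bars. S100A6 widens from 33.0% to 55.9% and ANXA1 from 8.35% to 17.8%.

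Between genes, levels were compared per length, as TMM-scaled RPKM (reads per kilobase of gene, scaled to library size). With the length taken as all annotated exon bases, S100A6 was first among the S100 genes in both libraries, at 126 in parental and 669 in CARM1 KO cells. It was also first by the longest protein-coding transcript, at 182 and 965. The order below it in parental cells depended on the length used. S100A13 (41.9), S100A11 (41.3) and S100A10 (36.5) were close by exon bases, whereas by the longest protein-coding transcript S100A13 was at 131, S100A10 at 55.0 and S100A11 at 47.6. In CARM1 KO cells S100A10 was in the next place by either length, at 167 or 252. By exon bases S100A4 went from 17.9 to 1.86 and S100A1 from 1.37 to 0.104.

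Annexin order also depended on the length used. By exon bases ANXA5 led ANXA2, with 183 against 83.7 in parental and 320 against 295 in CARM1 KO cells. By the longest protein-coding transcript ANXA2 led, with 468 against 326 in parental and 1650 against 572 in CARM1 KO cells, as its annotated exon bases (11574) far exceed that transcript (2069 bases). ANXA1 was next to both in CARM1 KO cells by either length, at 243 or 489. In parental cells ANXA1 (40.3), ANXA6 (42.0) and ANXA7 (47.0) were alike by exon bases.

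Known S100 and annexin partners were set side by side by the ratio of their reads in each library, whose change does not depend on length. S100A10 and ANXA2 were both higher, and their ratio went from 0.0381 in parental cells (95% interval 0.0359 to 0.0404) to 0.0496 in CARM1 KO cells (95% interval 0.0482 to 0.0510), 1.30 times as high. S100A11 and ANXA1 diverged. Their ratio went from 0.149 (95% interval 0.139 to 0.161) to 0.0327 (95% interval 0.0308 to 0.0347), 4.57-fold lower. S100A6 and ANXA11 also diverged, with a ratio of 2.39 in parental (95% interval 2.25 to 2.54) and 17.5 in CARM1 KO cells (95% interval 16.5 to 18.6).

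Promoter windows are shown for S100A6 and S100A4, which lie on either side of S100A5 and were called in opposite directions, for the complex partners S100A10 and ANXA2, and for ANXA1, the called annexin with the most reads after ANXA2. RefSeq windows (build GRCh38.p14, 250 bases before the start site and 50 from it) were found for 31 of the 34 members, all but ANXA8L2, ANXA13 and S100B, and each one printed here has 1 exact match in GRCh37, whose coordinates are given. Motifs of the TATA box, AP-1, the GC box and TEAD were searched on both strands and are in capitals, and their letters are given with the counts.
S100A6 (GRCh37 chr1:153508418-153508717, minus strand): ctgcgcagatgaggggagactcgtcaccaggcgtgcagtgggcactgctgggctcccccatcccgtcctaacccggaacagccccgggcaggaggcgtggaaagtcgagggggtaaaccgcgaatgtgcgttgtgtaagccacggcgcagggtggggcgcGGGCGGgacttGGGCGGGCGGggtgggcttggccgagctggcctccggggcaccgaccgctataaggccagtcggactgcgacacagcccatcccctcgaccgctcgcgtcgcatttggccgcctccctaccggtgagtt
S100A4 (GRCh37 chr1:153518233-153518532, minus strand): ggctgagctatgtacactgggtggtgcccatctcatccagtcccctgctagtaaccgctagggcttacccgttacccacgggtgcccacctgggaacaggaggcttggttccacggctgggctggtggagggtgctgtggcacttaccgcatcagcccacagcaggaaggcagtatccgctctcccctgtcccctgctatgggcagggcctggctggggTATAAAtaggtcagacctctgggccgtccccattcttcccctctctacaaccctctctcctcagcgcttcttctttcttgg
S100A10 (GRCh37 chr1:151966286-151966585, minus strand): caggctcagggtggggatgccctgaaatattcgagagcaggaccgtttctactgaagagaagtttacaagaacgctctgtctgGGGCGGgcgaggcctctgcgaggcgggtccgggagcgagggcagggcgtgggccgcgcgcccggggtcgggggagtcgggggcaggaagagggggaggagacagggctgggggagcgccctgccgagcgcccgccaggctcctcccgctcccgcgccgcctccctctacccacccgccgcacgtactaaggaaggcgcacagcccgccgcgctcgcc
ANXA2 (GRCh37 chr15:60690136-60690435, minus strand): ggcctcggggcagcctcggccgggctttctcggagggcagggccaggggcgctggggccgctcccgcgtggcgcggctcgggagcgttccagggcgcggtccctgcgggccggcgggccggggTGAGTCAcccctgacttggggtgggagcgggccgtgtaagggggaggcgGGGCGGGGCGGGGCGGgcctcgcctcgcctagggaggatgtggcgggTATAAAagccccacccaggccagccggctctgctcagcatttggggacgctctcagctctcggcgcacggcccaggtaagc
ANXA1 (GRCh37 chr9:75766531-75766830, plus strand): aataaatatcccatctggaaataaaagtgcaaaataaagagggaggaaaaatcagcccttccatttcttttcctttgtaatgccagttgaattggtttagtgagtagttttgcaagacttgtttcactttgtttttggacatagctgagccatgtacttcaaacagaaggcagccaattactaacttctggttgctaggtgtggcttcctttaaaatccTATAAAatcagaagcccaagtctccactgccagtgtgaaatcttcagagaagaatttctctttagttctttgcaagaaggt

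S100A6, S100A10 and ANXA2 start in CpG-rich sequence, and S100A4 and ANXA1 do not. The S100A6 window held 31 CpG dinucleotides, S100A10 held 32 and ANXA2 held 32, against a median of 14 over 35116 promoter windows of the same length. S100A4 and S100A1, both called lower, held 8 and 6. Of the other genes called higher, ANXA1 held 0, ANXA3 held 25, ANXA8L1 held 10 and ANXA9 held 5. The ANXA8L1 window had no exact match in GRCh37 and may not be that of the counted copy. The genes called higher thus did not share a promoter type. S100A2 and S100A16, both just under the threshold, held 5 and 3. A TATA box, spelled TATAAA, stood at position -31 in S100A4, ANXA1 and ANXA2, counted from the start site, and 12 of the 31 member windows and 11.5% of all windows hold this motif. The GC box GGGCGG, a motif in 45.0% of windows, stood 3 times in S100A6 and 3 times in ANXA2, with overlaps, and 1 time in S100A10. The AP-1 motif TGAGTCA, in 4.95% of windows, was found in 4 member windows, those of ANXA2 (at -127), S100A2, S100A3 and S100PBP. The TEAD motif GGAATG, in 14.0% of windows, was found in S100A16 only among the members with a window. A match describes these letters and is not a binding site.

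Partners of the families were read from gene lists. The list for the plasmin system served by S100A10 and annexin A2 also holds binding partners of that complex. Of its 8 genes, 7 had at least 10 reads, and 3 were called higher and 0 lower, against 12.4% and 11.2% of all genes. The median log2 fold of the list was 1.54. PLAT, the tissue plasminogen activator that binds the complex, had 214 and 1608 reads, 7.34-fold higher (95% interval 6.36 to 8.50). AHNAK, a giant scaffold that the complex holds at the membrane, had 16842 and 67366 reads, 3.91-fold higher (95% interval 3.84 to 3.97). DLC1, a GTPase-activating tumour suppressor that binds S100A10, was 3.65-fold higher. The paper had already reported DLC1 as higher in the knockout from these same libraries, so its call is not a separate result. CTSB, the protease cathepsin B, had 3846 and 11464 reads, a ratio of 2.91 that was not called. PLAU and PLAUR, also of this list, were 1.53-fold and 1.65-fold higher and were not called. In the other direction PLGRKT, a plasminogen receptor chosen after its values were seen, had 354 and 121 reads and was 2.995-fold lower, just under the threshold.

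Of 15 intracellular targets of S100 proteins, 3 were called higher and 0 lower, against 12.4% and 11.2% of all genes. Their median log2 fold was 0.38. Besides AHNAK, which is also in the plasmin list, the called genes were the calcium release channels RYR1 and RYR2, both targets of S100A1. RYR1 had 125 and 574 reads and RYR2 had 16 and 463. EZR (ezrin), bound by S100P, was 2.31-fold higher. Among 5 receptors for released S100 proteins, AGER, the receptor RAGE, had 30 and 33 reads, and CD36 was the 1 called gene, with 95 parental and 8 knockout reads. ALCAM was 2.89-fold higher and BSG 1.51-fold higher. No annexin A1 receptor of the formyl peptide family reached 10 reads.

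Membrane repair genes had a median log2 fold of 0.64. Of these, 3 of 15 were called higher and 0 lower, against 12.4% and 11.2% of all genes. MYOF (myoferlin), a membrane fusion protein, was 3.54-fold higher, CAV1, the caveolar coat protein, was 5.47-fold higher with 2171 and 12169 reads, and EHD2, which stabilises caveolae, was 3.34-fold higher. CAVIN1, another caveolar coat protein, was 1.63-fold higher.

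Calcium binders outside both families were called in both directions. Of 33 other EF-hand proteins with at least 10 reads, 3 were called higher and 3 lower, against 12.4% and 11.2% of all genes. Their median log2 fold was -0.03, as it was over all genes. The called ones included GCA (grancalcin), 3.78-fold higher, and TESC (tescalcin), 3.46-fold higher, while EFHD1 was 3.71-fold lower and CIB2 3.60-fold lower. Of 22 proteins that bind calcium and phospholipid through C2 domains, 8 were called higher and 3 lower, against the same shares of all genes. Their median log2 fold was 0.77. PRKCA, protein kinase C alpha, had 392 and 2864 reads, 7.14-fold higher, and the synaptotagmin-like genes SYTL4, SYTL3 and SYTL2 were 5.42-fold, 5.04-fold and 3.84-fold higher.

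Markers of cell types moved beside these genes. Over all genes, 12.4% were called higher and 11.2% lower. Of 8 epithelial ovarian markers, 6 had at least 10 reads and 5 were called higher, and their summed level went from 1411 to 4749 CPM, led by KRT8 and KRT7. WT1 (8 and 1 reads) and MUC16 (0 and 1 reads) were at or near 0. Of 6 fibroblast markers 4 were called lower and 1, COL1A1, higher, and their sum went from 570 to 21.5 CPM. COL1A2 had 16732 and 3 reads and THY1 678 and 4, beside the lower S100A4. The part of these programs in the S100 and annexin values was not tested. Myeloid markers summed to 0.963 and 1.10 CPM and keratinocyte markers to 3.15 and 3.73, which covers the cells that normally make S100A8, S100A9 and S100A7. The 6 melanocyte and glial markers went from 4.01 to 26.8 CPM, of which MITF had 100 and 765 reads, while S100B had 0 and 1 read.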

How the data were processed

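Total RNA of A1847 cells was sequenced, with 1 library each for the parental line and the CARM1 knockout. The authors aligned reads to hg19 with bowtie2, estimated reads per Ensembl gene with RSEM (1.2.3 in the submitters' processing notes, another version in the methods) and deposited whole-number counts without normalization. RSEM divides reads among near-identical copies. The Ensembl release is not given in the sources used here.

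Identifiers were named with GENCODE v44 lifted to GRCh37, the build of hg19. Counts were scaled by TMM in edgeR 4.0.16 (R 4.3.3), and intervals were computed with scipy 1.17.1. Genes had at least 10 reads in both libraries together, and a count of 0 was set to 3 reads for a fold. The quasi-likelihood test of edgeR needs replicates and was not run. The members and lists were chosen with earlier results of these data known. One gene of the plasmin list is not reported here and was left out of its counts. Related lists name up to 4 genes, called genes first and then by reads, and the plasmin list also names PLAU, PLAUR and PLGRKT. The steps were checked on simulated counts. Alternatives were scaling by DESeq2 (1.42.0), by upper quartile or by library size, other minimums, other call rules, and another transcript length.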

Additional observations from a re-analysis of the deposited data

How the results depend on the processing

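Library size only, DESeq2 size factors and upper-quartile scaling left the direction and the call of each of the 21 members with at least 10 reads as they were. Over these scalings, the whole-interval rule and both assumed coefficients of variation, the 10 called members gave 60 comparisons, of which 53 kept the call and 7 lost it, and the 11 uncalled members gained none. The last 3 of these settings leave the fold itself as it is and still require 3-fold, so an uncalled member could not gain a call in them. ANXA9 lost its call when the whole interval had to pass 3-fold, and a minimum of 50 reads left it out, so that 5 annexins were higher. Without ANXA9, a choice made after seeing the data, the annexin median log2 fold was 1.31 against 1.80. At an assumed coefficient of variation of 0.4, 0 S100 genes were higher against 2 here, 2 annexins were higher against 6, and over all genes 543 were higher and 888 lower against 2295 and 2070, which follows from the wider spread assumed. A fold of 2 gave 4 higher S100 genes and 3180 lower genes in all. The whole interval past 3-fold gave 1292 higher and 1234 lower genes, and a minimum of 50 reads gave 1219 lower genes. No paired analysis was possible because each group holds 1 library, which also means that none could be left out. Depth limits the genes under 10 reads most.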

Other observations

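ANXA2R, which encodes a receptor for annexin A2 and falls outside the rule, had 241 parental and 39 knockout reads, 6.33-fold lower (95% interval 4.50 to 9.12), while ANXA2 was higher. Its antisense gene ANXA2R-AS1 had 79 and 3 reads. ANXA2R-OT1, which spans ANXA2R on the same strand, had 143 and 60 reads and was not called. Without a statement on strand the reads of ANXA2R and ANXA2R-AS1 cannot be told apart, and strand would not separate ANXA2R from ANXA2R-OT1. These overlapping genes were chosen after their values were seen.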
